A study of Mus musculus with 8 samples.

Results

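The mevalonate pathway builds isoprenoid units from acetyl-CoA and ends, on its sterol arm, in squalene, the first committed precursor of cholesterol. Its cytosolic thiolase Acat2 and synthase Hmgcs1 make HMG-CoA, the source of mevalonate, and Mvk, Pmvk, Mvd and Idi1 turn mevalonate into the isoprenyl diphosphates. Fdps joins these into farnesyl diphosphate, and Fdft1 (squalene synthase) joins farnesyl diphosphate head to head. In mammalian cells the transcription factor SREBP-2, held in the endoplasmic reticulum by Insig proteins when sterol is plentiful, is known to drive these genes together, often with NF-Y bound nearby.

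The 8 genes followed here are the enzymes Acat2, Hmgcs1, Mvk, Pmvk, Mvd, Idi1, Fdps and Fdft1, taken by name in pathway order from 24460 counted genes. All 8 were among the 14296 genes with enough counts to test.

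The cells were wild type mouse embryonic fibroblasts (MEFs), that is, connective tissue cells grown in culture from embryos. There were 3 untreated libraries (0 µM), 3 from cells given 2 µM and 2 from cells given 10 µM RHPS4. This small molecule binds G-quadruplexes, the 4-stranded structures of guanine-rich nucleic acid. The labels give exposures of 16 or 24 h without saying which applied to the RNA, and do not say whether libraries of a dose came from separate cultures, so the p-values measure only the spread between these libraries. Serum was present in the medium at every dose.

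Total counts ran from 10455965 to 26688121 per library, and 3 counts corresponded to 0.287 CPM in the smallest and 0.112 CPM in the largest. CPM are counts scaled by TMM, edgeR's correction for library size and composition. Counts of mtDNA features made up 13.2% to 14.4% of each 0 µM library, 7.40% to 8.26% of each 2 µM library and 5.33% to 6.32% of each 10 µM library. All 10 fibroblast markers were tested, and their summed level was 14090 to 14540 CPM at 0 µM, 12840 to 13060 at 2 µM and 12490 to 12810 at 10 µM. Summed markers of epithelium (4 genes), endothelium (3), blood (3) and hepatocytes (3) stayed between 0.496 and 9.40 CPM in every library, with Ttr listed at 0 in 4 of the 8. All 10 fibroblast markers were fitted below 0 at 10 against 0 µM (5 of 10 with scaling by total counts alone), with a median log2 change of -0.20. At 2 against 0 µM 9 of 10 were fitted below 0 (median -0.30), and at 10 against 2 µM 5 of 10 (median -0.013). The receptor gene Pdgfrb among them was called lower at 10 against 0 µM, by 0.60 on the log2 scale (edgeR adjusted p = 0.000248). The 4 muscle markers summed to 146 to 165 CPM at 0 µM, 220 to 241 at 2 µM and 151 to 160 at 10 µM, nearly all of it Acta2, an actin that cultured fibroblasts also make. Acta2 differed by 0.56 at 2 against 0 µM (adjusted p = 0.00247) and by -0.56 at 10 against 2 µM (adjusted p = 0.000843) on the log2 scale, both just under 1.5-fold, and 3 and 8 of 17 alternatives called them. The part of these shifts in the results given here was not tested. The 0 µM replicate 1 stood apart from the others of its dose, with a chi-square of 15.4 and 20.2 per degree of freedom against replicates 2 and 3, which differed from each other by 3.23. On the same measure the 2 µM libraries differed by 3.91 to 10.6 (replicates 1 and 3) and the 2 libraries at 10 µM by 8.63.

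The 250 bases before the RefSeq start of a gene (GRCm38.p6) were read for 6 of the 8 genes, and none were read for Fdps or Fdft1. The 3 windows shown here mark what the genes share and where they differ, with annotated exon bases left out. Capitals mark CCAAT, the NF-Y box, on either strand (ATTGG on the strand shown) and TCACNCCAC, a form of the sterol regulatory element that SREBP proteins bind. The Hmgcs1 window is chr13:119690101-119690350 on the plus strand, the Mvk window chr5:114444061-114444268 on the plus strand and the Acat2 window chr17:12960748-12960975 on the minus strand, each 5′ to 3′.
Hmgcs1: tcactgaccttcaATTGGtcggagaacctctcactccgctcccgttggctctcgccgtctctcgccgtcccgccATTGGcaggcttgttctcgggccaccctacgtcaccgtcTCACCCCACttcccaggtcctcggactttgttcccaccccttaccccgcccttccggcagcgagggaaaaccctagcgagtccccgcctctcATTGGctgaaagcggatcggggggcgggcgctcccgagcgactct
Mvk: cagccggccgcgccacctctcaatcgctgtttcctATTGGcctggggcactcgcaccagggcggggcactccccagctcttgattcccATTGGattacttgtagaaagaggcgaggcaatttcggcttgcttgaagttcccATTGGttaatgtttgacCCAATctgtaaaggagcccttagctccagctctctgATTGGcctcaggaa
Acat2: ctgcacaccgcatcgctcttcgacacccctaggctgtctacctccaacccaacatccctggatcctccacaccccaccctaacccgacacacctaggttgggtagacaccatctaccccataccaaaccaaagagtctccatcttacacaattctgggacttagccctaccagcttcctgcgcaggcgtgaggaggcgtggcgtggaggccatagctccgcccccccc

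CCAAT was found on at least 1 strand before the RefSeq start of 5 of the 6 genes, Hmgcs1 (3 matches), Mvk (5), Mvd (2), Idi1 (2) and Pmvk (1, in the first of its 2 windows). The Idi1 window (chr13:8885356-8885605, plus strand) consists wholly of annotated exon. It runs past the GENCODE start of Idi1 at 8885501, and its 2 matches lie downstream of that start. Of the 32851 windows of all genes, 33.9% held at least 1 CCAAT and 10.1% held at least 2. TCACNCCAC was found in the Hmgcs1 window only, 137 to 129 bases before the start, against 1.05% of all windows. A G-quadruplex pattern, 4 runs of 3 or more G spaced by 1 to 7 bases on either strand, was found before Hmgcs1 only, against 16.7% of all windows. The motifs were chosen after the sequences had been seen and the counts known, and a match is a description of letters, not of a bound site.

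In untreated MEFs the 8 mRNAs were all well expressed. On a per-length scale (FPKM, CPM divided by kilobases of exon in the GENCODE annotation of GRCm38), Fdps was at 64.0 ± 6.0 and Hmgcs1 at 62.0 ± 7.24 (SD, n = 3). Acat2 followed at 48.2 ± 7.75, Pmvk at 39.2 ± 3.49 and Fdft1 at 34.9 ± 1.18 FPKM (SD, n = 3). The lowest levels were those of Mvk at 19.9 ± 1.52, Mvd at 18.9 ± 3.83 and Idi1 at 17.9 ± 0.849 FPKM (SD, n = 3). Neighbours in this order overlapped between libraries for Fdps and Hmgcs1, for Hmgcs1 and Acat2, for Mvk and Mvd, and for Mvd and Idi1. Acat2 did not overlap with Pmvk, Pmvk with Fdft1 or Fdft1 with Mvk, although Acat2 and Pmvk changed places when the longest transcript (54.5 and 56.3 FPKM) stood in for all exons, as did Mvd (19.2 FPKM) and Idi1 (20.7 FPKM).

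**Figure D1:**
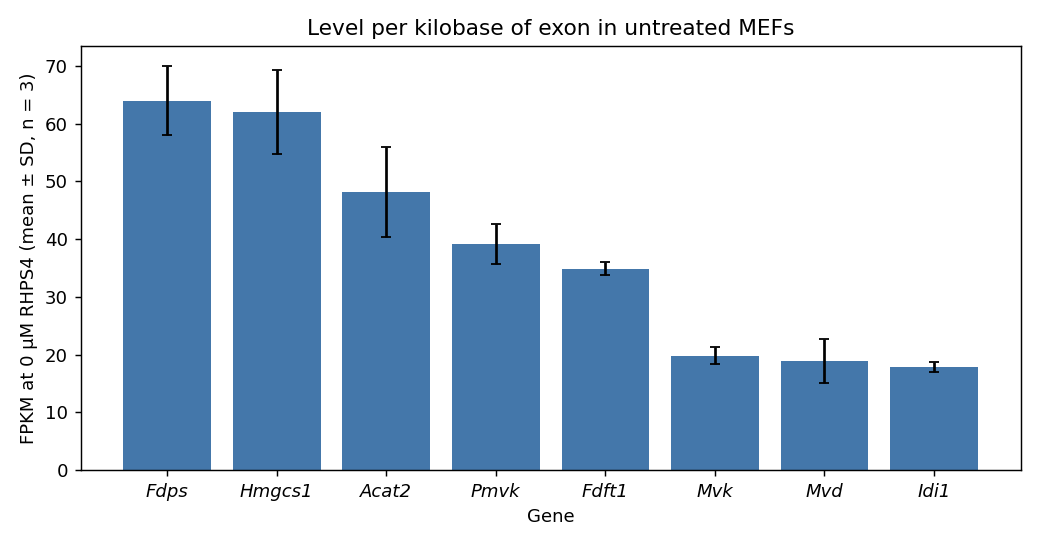
Bars give the mean level per kilobase of exon (FPKM) of each mRNA in the 3 libraries at 0 µM RHPS4, with SD as error bars, in falling order. Fdps (64.0) and Hmgcs1 (62.0) stand highest and Idi1 (17.9) lowest on this scale.

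At 2 µM RHPS4 none of the 8 members was called, against 0.497% of all tested genes. At 10 µM both libraries lay below all untreated libraries for each of the 8, against 20.0% of all tested genes, and 3 of the 8 were called lower, against 1.14%. A gene was called at an adjusted p under 0.01 (edgeR's quasi-likelihood test over all 14296 genes, Benjamini-Hochberg) and a fold change over 1.5. The summed level of the 8 mRNAs was 1083, 1017 and 1027 CPM at 0 µM, 997, 985 and 963 CPM at 2 µM, and 680 and 717 CPM at 10 µM. In these cultures fewer cells and less RNA per cell cannot be told apart, and a level is relative to the other RNA of its library. The summed levels of the 3 doses did not overlap, the 2 µM libraries lying just under the untreated ones and the 10 µM libraries well under both. As a share of all counts, without TMM, the 8 mRNAs took 0.0969% to 0.0998% at 0 µM and 0.0949% to 0.0993% at 2 µM, which overlap, and 0.0739% and 0.0788% at 10 µM.

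**Figure D2:**
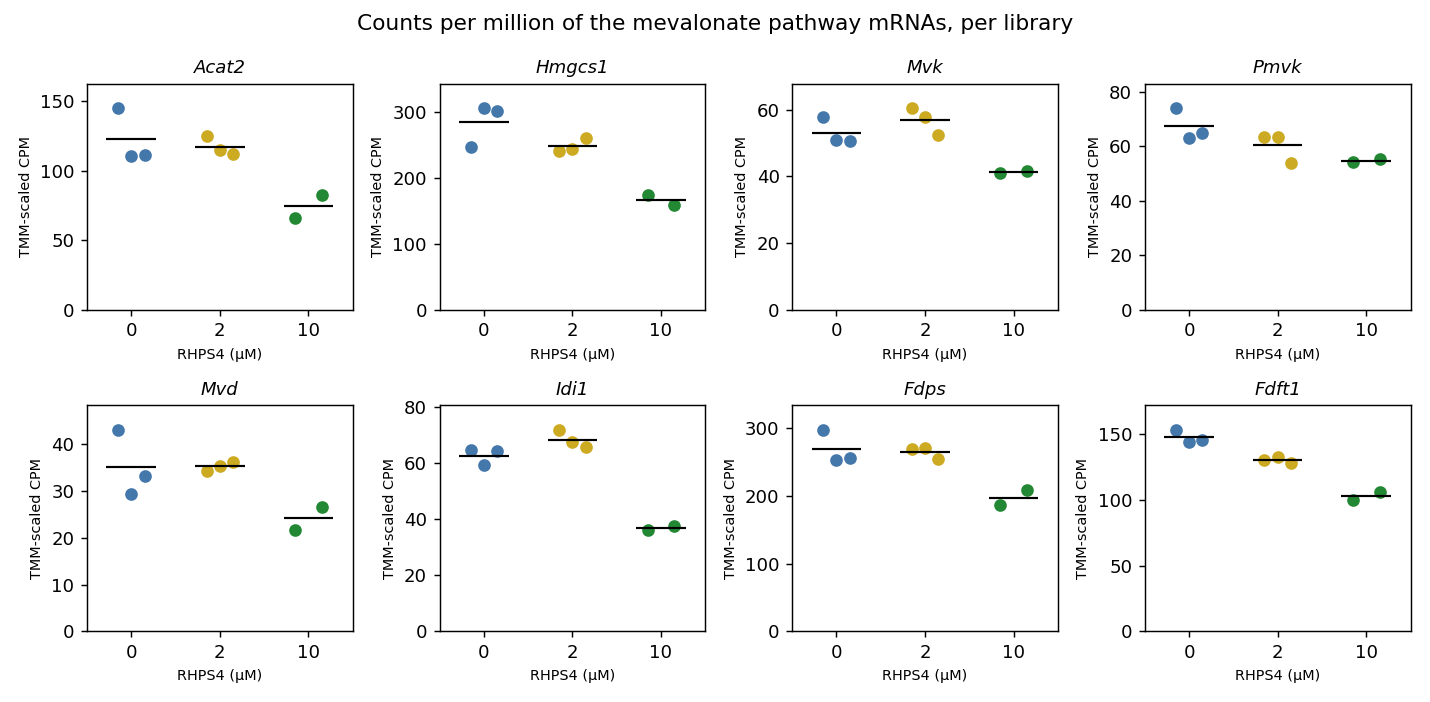
Each point is the TMM-scaled CPM of 1 library at 0, 2 or 10 µM RHPS4, with a line at the mean of the dose, for the 8 members in pathway order. For each of the 8 members both 10 µM points lie below all 3 untreated points, whereas the 2 µM points lie among or close to them.

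The first enzymes make acetoacetyl-CoA and HMG-CoA. Acat2 (chr17:12942890-12960747, minus strand), the cytosolic thiolase, was at 145, 111 and 112 CPM at 0 µM, 125, 115 and 112 CPM at 2 µM, and 66.1 and 82.9 CPM at 10 µM. The 10 µM libraries lay below all others, while 0 and 2 µM overlapped. Its level at 10 µM fell by 0.72 on the log2 scale against 0 µM (SE 0.133, edgeR adjusted p = 0.00546) and by 0.66 against 2 µM (SE 0.133, adjusted p = 0.00534), and both were called. The call against 0 µM was lost in 6 of 17 alternatives, among them the replicate block (adjusted p = 0.0114) and 3 that left out a library: the 10 µM replicate 1 (adjusted p = 0.0409), the 2 µM replicate 2 (adjusted p = 0.0133) or the 0 µM replicate 2. The call against 2 µM was lost in 4, with total counts alone (adjusted p = 0.0132) and without the 10 µM replicate 1 (adjusted p = 0.0396), the 2 µM replicate 1 (adjusted p = 0.0184) or the 2 µM replicate 2 (adjusted p = 0.0195). Acat2 also shares sequence with a related gene, Acat3: 40.7% of the 75-base stretches of its longest transcript occur in Acat3 as well. Acat3 itself was at 1.06 to 3.32 CPM in all libraries. Acat1, the mitochondrial thiolase of the same reaction, was at 139 to 165 CPM at 0 µM and 138 and 149 CPM at 10 µM, a fitted log2 change of -0.048 (adjusted p = 0.760).

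Hmgcs1 (chr13:119690379-119708260, plus strand), the cytosolic HMG-CoA synthase, was at 247, 307 and 301 CPM at 0 µM, 242, 243 and 260 CPM at 2 µM, and 175 and 158 CPM at 10 µM. Both 10 µM libraries lay below all others, while the untreated replicate 1 lay far below the other 2 untreated ones. Between 0 and 10 µM it fell by 0.78 on the log2 scale (SE 0.103, adjusted p = 0.000704) and was called, except without the 10 µM replicate 2 (adjusted p = 0.0130) and with scaling by total counts alone. Between 2 and 10 µM the adjusted p was 0.00263 and the level was 0.670 of that at 2 µM, which is just short of the 1.5-fold threshold, and 9 of 17 alternatives called it, 1 of them by dropping the fold threshold. At 2 µM the fitted log2 change from 0 µM was -0.20, with a 95% interval of -0.40 to -0.0024 and an adjusted p of 0.230. Gm48342, an antisense gene model on the opposite strand, overlaps 12.1% of the exon bases of Hmgcs1, and the strand setting of the counting is not given.

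The mevalonate kinases and the decarboxylase follow. Mvk was at 57.8, 51.0 and 50.6 CPM at 0 µM, 60.6, 57.8 and 52.5 CPM at 2 µM, and 41.0 and 41.7 CPM at 10 µM. Both 10 µM libraries were lower than all 6 others and nearly equal. The log2 change at 10 µM was -0.36 against 0 µM (SE 0.0930, adjusted p = 0.0266) and -0.46 against 2 µM (SE 0.0935, adjusted p = 0.00541), short of the called fold in both.

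Mvk shares its upstream region with Mmab, a cobalamin enzyme gene on the other strand whose annotated start lies 209 bases from that of Mvk (chr5:114444269-114460591, plus strand). The 2 RefSeq windows have 241 bases in common, and all 5 CCAAT boxes of the Mvk sequence shown lie in both. Mmab was at 42.2, 34.3 and 34.6 CPM at 0 µM, 36.2, 33.5 and 35.1 CPM at 2 µM, and 35.4 and 34.3 CPM at 10 µM. The doses of Mmab overlapped throughout, and its fitted log2 change at 10 µM was -0.077 (95% interval -0.30 to 0.15, adjusted p = 0.663). The difference between the 2 genes' changes was not tested.

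Pmvk (chr3:89454541-89469013, plus strand), phosphomevalonate kinase, had the smallest fitted change of the 8 at 10 µM, against 0 and against 2 µM. It was at 74.0, 62.8 and 64.7 CPM at 0 µM, 63.5, 63.4 and 53.9 CPM at 2 µM, and 54.0 and 55.2 CPM at 10 µM. The 10 µM libraries lay below the untreated ones but overlapped with the 2 µM replicate 3. Its log2 change from 0 to 10 µM was -0.29 (95% interval -0.51 to -0.07, adjusted p = 0.0742) and from 2 to 10 µM -0.14 (adjusted p = 0.348).

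Mvd (chr8:122433601-122443422, minus strand), which decarboxylates mevalonate diphosphate to isopentenyl diphosphate, was at 43.1, 29.2 and 33.2 CPM at 0 µM, 34.2, 35.3 and 36.1 CPM at 2 µM, and 21.7 and 26.5 CPM at 10 µM. Both 10 µM libraries were below all others, and the untreated libraries spread more widely than those at 2 µM. The log2 change was -0.53 against 0 µM (SE 0.149, adjusted p = 0.0363) and -0.55 against 2 µM (SE 0.150, adjusted p = 0.0219), neither called. DESeq2 (log2 change -0.59, adjusted p = 0.00231) and edgeR with no filter on low counts (log2 change -0.59, adjusted p = 0.00658) called Mvd against 2 µM.

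Idi1 (chr13:8885501-8892451, plus strand) isomerises isopentenyl diphosphate to dimethylallyl diphosphate. It was at 64.5, 59.1 and 64.1 CPM at 0 µM, 71.8, 67.4 and 65.6 CPM at 2 µM, and 36.1 and 37.7 CPM at 10 µM. The 2 µM libraries all lay above the untreated ones, as in 12.7% of all genes, with a log2 change of 0.13 that did not pass (adjusted p = 0.328), and the 10 µM libraries lay far below both. Against 0 µM Idi1 fell by 0.76 on the log2 scale (SE 0.0824, adjusted p = 0.000176), and against 2 µM it fell by 0.89 (SE 0.0829, adjusted p = 4.44e-05). Both were called, and among the alternatives only scaling by total counts alone lost the call against 0 µM. Its close relative Idi2 had 0 to 11 counts per library and was not tested. Of the 75-base stretches of Idi1, 29.1% occur in transcripts of 5 other genes, most of them in Gm13502. The authors describe counting uniquely mapped fragments, and any loss of reads from these stretches was not tested.

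Fdps (chr3:89093588-89101959, minus strand), farnesyl diphosphate synthase, was at 298, 253 and 256 CPM at 0 µM, 270, 270 and 255 CPM at 2 µM, and 186 and 209 CPM at 10 µM. The 10 µM libraries stood apart below the rest, and 0 and 2 µM overlapped. The log2 change was -0.44 against 0 µM (SE 0.0927, adjusted p = 0.00991) and -0.42 against 2 µM (SE 0.0928, adjusted p = 0.00794), past the p threshold and under 1.5-fold in both. Of its exon bases, 26.7% are also exon of Gm43738, a gene model on the same strand.

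Fdft1 (chr14:63145150-63179578, minus strand), squalene synthase, was at 153, 144 and 145 CPM at 0 µM, 130, 132 and 128 CPM at 2 µM, and 99.9 and 106 CPM at 10 µM. It was the only member whose libraries fell into 3 separate bands in the order of the dose. The 12.9% of tested genes whose 2 µM libraries all lay below the untreated ones give the background for that first step, which did not pass (log2 change -0.18, SE 0.0638, adjusted p = 0.135). From 0 to 10 µM the change was -0.52 (SE 0.0725, adjusted p = 0.000958) and from 2 to 10 µM -0.34 (SE 0.0724, adjusted p = 0.00690), both under 1.5-fold. Ctsb, a cathepsin gene on the opposite strand, overlaps 18.3% of the exon bases of Fdft1, and the strand setting of the counting is not given. Ctsb was at 447 to 523 CPM at 0 µM and 486 and 529 CPM at 10 µM, which overlap (log2 change 0.096, adjusted p = 0.500). The part of Ctsb reads in the counts of Fdft1 was not tested.

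Counted together at 10 against 0 µM, 3 of the 8 members were called lower (Acat2, Hmgcs1 and Idi1) and none higher, set against the 1.14% called lower above and 1.95% called higher. At an adjusted p under 0.01 and any fold, 5 of 8 were lower (with Fdps and Fdft1), against 2.46% of all genes. All 8 had both 10 µM libraries below all untreated libraries. The median log2 change of the members was -0.53, with a range of -0.78 to -0.29, and that of all tested genes was 0.016. At 10 against 2 µM, 2 of 8 members were called lower (Acat2 and Idi1), against 1.59% of all genes, and 6 of 8 at any fold, against 5.13%. Their libraries did not overlap for 7 of the 8, all but Pmvk, against 24.9% of all genes, and the median log2 change was -0.51. Scaling by total counts alone put the median of all genes at 0.23 for 10 against 0 µM and left 0 members called. A change of scaling moves all genes nearly alike. The members' median relative to that of all genes, -0.54 under both scalings, therefore cannot test the choice of scaling.

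At 2 against 0 µM, edgeR and DESeq2 called 0 of 8 members each, while edgeR called 0.497% of all genes. At an unadjusted p under 0.05 there were 2 members, Hmgcs1 and Fdft1, both lower, against 21.3% of all genes. The fitted change was below 0 for 5 members and above 0 for 3, against 51.8% below 0 of all genes, with a median of -0.039 and a range of -0.20 to 0.13. The comparisons share libraries, so the 3 sets of values stand side by side and are not independent of each other.

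**Figure D3:**
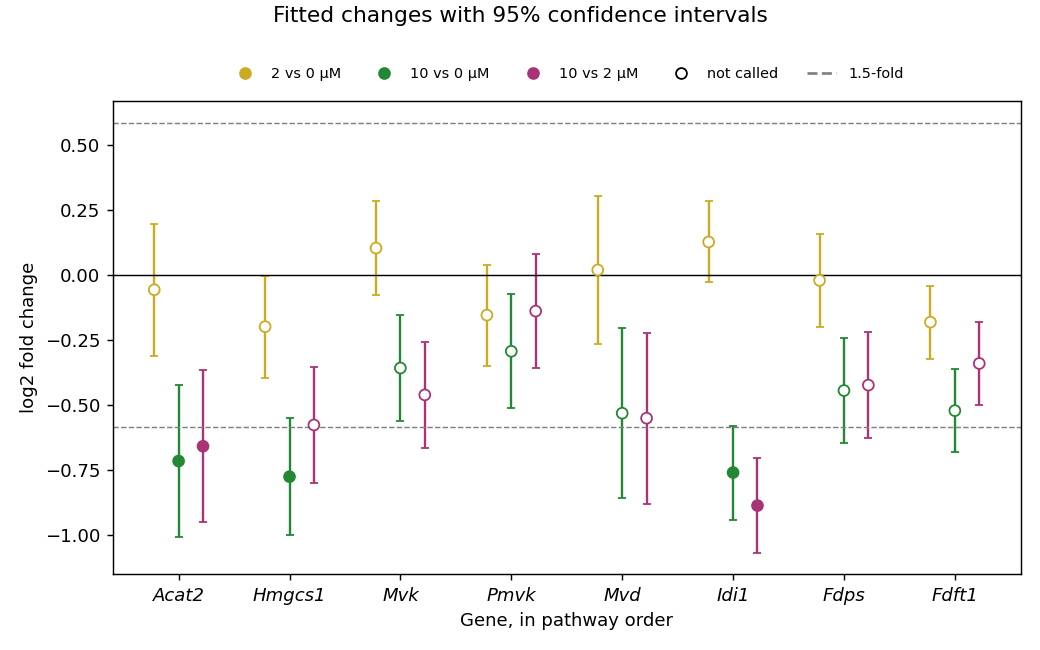
Points are fitted log2 fold changes with 95% confidence intervals from edgeR for the 8 members, in 3 comparisons, filled where called and open where not, with dashed lines at 1.5-fold. Changes at 2 µM lie within 0.20 of 0 for the members, and those at 10 µM lie between -0.78 and -0.29 against 0 µM.

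The genes around the pathway were read from the same fit. Of 11 enzymes that take squalene to cholesterol, 4 were called lower at 10 against 0 µM and none higher, beside 1.14% and 1.95% of all genes. The median log2 change was -0.56, with a range of -0.865 to -0.080. Ebp (-0.080, adjusted p = 0.674) and Tm7sf2 (-0.14, adjusted p = 0.553) changed least, and their doses overlapped. DESeq2 called 6 of the 11 lower, adding Nsdhl and Dhcr7, beside 269 lower of all genes. Hsd17b7 and Cyp51, enzymes of sterol demethylation, fell by 0.86 on the log2 scale (adjusted p = 6.92e-05) and by 0.80 (adjusted p = 0.000195), and Sqle and Lss, which epoxidise squalene and close its rings, each fell by 0.61 (adjusted p = 0.000363 and 0.000351). At 2 µM none of the 11 was called by edgeR or DESeq2, and 2 had an unadjusted p under 0.05, Lbr with a log2 change of 0.19 and Dhcr7 with -0.30, beside 21.3% of all genes. With scaling by total counts alone, 1 of the 11 was called lower at 10 against 0 µM.

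Among 16 regulators and transporters of sterol, Insig1 was called lower at 10 against 0 µM and none was called higher, beside 1.14% and 1.95% of all genes. The median was -0.14. Insig1, itself a known SREBP target, was at 66.4, 61.2 and 60.6 CPM at 0 µM and at 34.4 and 39.0 CPM at 10 µM. Both 10 µM libraries lay below the untreated ones, and it fell by 0.77 on the log2 scale (adjusted p = 0.000226). The SREBP genes were not called: Srebf1 was at a log2 change of -0.40 (adjusted p = 0.00380), under 1.5-fold, and Srebf2 at -0.62 (adjusted p = 0.0917). Srebf2 was at 132, 225 and 237 CPM at 0 µM and 148 and 110 CPM at 10 µM, so that its untreated replicate 1 lay between the treated libraries. Without that library Srebf2 was called (log2 change -0.86, adjusted p = 0.00280), and the regulators called lower numbered 3. With scaling by total counts alone, 0 of the 16 were called at 10 against 0 µM. Abca1, the cholesterol exporter, was nearest to a call at 2 µM, with a log2 change of -0.58 (adjusted p = 0.00670), just under 1.5-fold, and was called without the 0 µM replicate 1 (adjusted p = 0.00108).

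None of the 16 enzymes that use isoprenoid diphosphates for other products, such as prenyltransferases and those of coenzyme Q and dolichol, was called in any comparison by edgeR or DESeq2. Over all genes edgeR called 0.497% at 2 against 0 µM, and 1.14% lower and 1.95% higher at 10 against 0 µM. At 10 against 2 µM it called 1.59% lower, and 561 of 14296 genes higher. With 16 genes, 0 called is near those shares. At 10 against 0 µM 2 of these 16 enzymes had an unadjusted p under 0.05, beside 29.4% of all genes. Their median log2 change was -0.025, and 8 were fitted below and 8 above 0. Of 4 genes that supply acetyl-CoA or acetoacetyl-CoA, Aacs was called lower (log2 change -0.64, adjusted p = 0.00449), beside 1.14% of all genes. Acly, which cuts citrate to acetyl-CoA, was at -0.48 (adjusted p = 0.00348). Aacs lost its call in 7 of 17 alternatives, among them those without the 10 µM replicate 2 (adjusted p = 0.0517) and with the replicate block (adjusted p = 0.0170). Acss2, which makes acetyl-CoA from acetate, went the other way, from 13.7 to 15.1 CPM at 0 µM to 18.4 and 20.1 CPM at 10 µM (log2 change 0.42, adjusted p = 0.0168). At 10 against 2 µM Acss2 was called higher (log2 change 0.62, adjusted p = 0.00169), beside 561 of 14296 genes, a call lost in 4 alternatives. At 10 against 0 µM Acss2 was called higher with total counts alone (log2 change 0.64, adjusted p = 0.00124), beside 846 of 14296 genes.

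**Figure D4:**
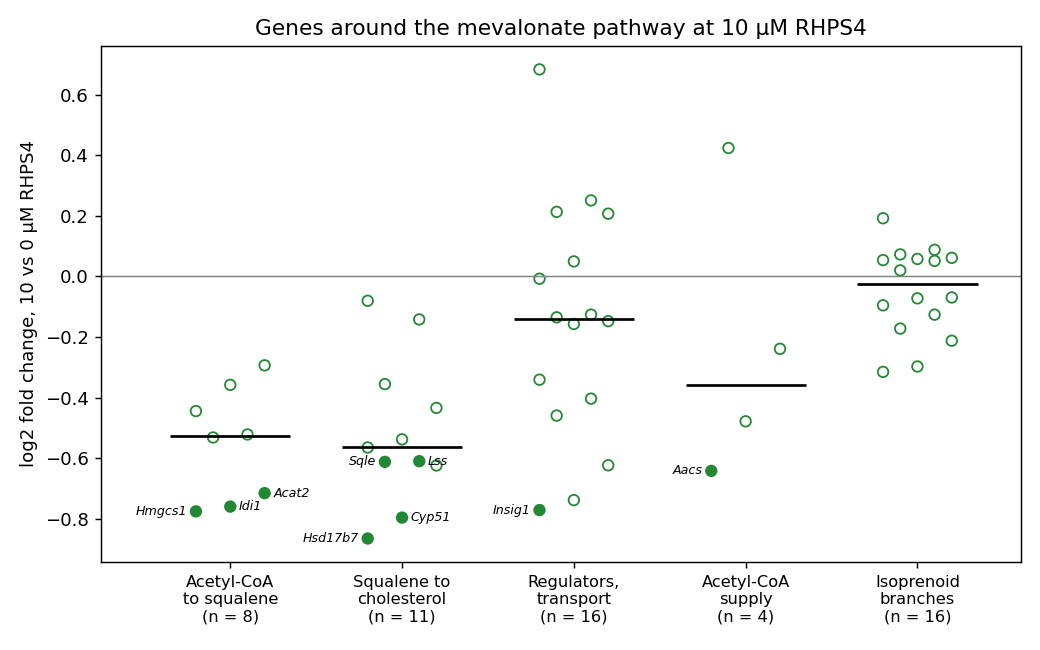
Each point is the fitted log2 fold change of 1 gene at 10 against 0 µM RHPS4, filled where called, in 5 groups of genes with a line at the median. The groups of the route to cholesterol have medians of -0.53 and -0.56, and the isoprenoid branches lie around 0 with a median of -0.025.

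Across the 8 libraries the log2 CPM of the members rose and fell together, with a median Pearson r of 0.837 over 28 pairs and a range of 0.531 to 0.994. The points share the libraries and the dose, so this is a description. Within doses, after subtracting the mean of the dose, the median r was 0.695, but 7 pairs were negative, and those 7 were the pairs with Hmgcs1. Genes around the pathway deviated either way too, with r to the members' mean deviation from -0.899 (Srebf2) to 0.986 (Msmo1). In the 0 µM replicate 1, Hmgcs1 lay 0.201 below the mean of its dose on the log2 scale while the other 7 members lay 0.0444 to 0.310 above it. In the 10 µM replicate 2 the split was the same, with Hmgcs1 0.071 below and the other 7 between 0.0119 and 0.163 above. With 2 libraries at 10 µM, the deviations in replicate 1 are by construction the mirror image of these.

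In the same 2 libraries, and in the 2 µM replicate 1, genes with long exon sequence were low as a class. The 25% of genes with the longest exon sequence minus the 25% with the shortest gave -0.152 in the 0 µM replicate 1, -0.0834 in the 2 µM replicate 1 and -0.0531 in the 10 µM replicate 2, as medians of the deviation from the dose mean. No member belongs to the longest 25% (6953 exon bases or more). Hmgcs1 has 4594 exon bases, Fdft1 4227 and Fdps 4208. In the 0 µM replicate 1 and the 10 µM replicate 2, Fdft1 and Fdps lay above the dose mean and Hmgcs1 below it. Between 10 and 0 µM, the median log2 change was 0.045 for the 25% of genes with the shortest exon sequence and -0.015 for the longest 25%. The part of gene length in the members' changes was not tested. Without the 0 µM replicate 1, 3 members were called at 10 against 0 µM, as with it. The members' median log2 change was then -0.46, and -0.53 with that library.

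**Figure D5:**
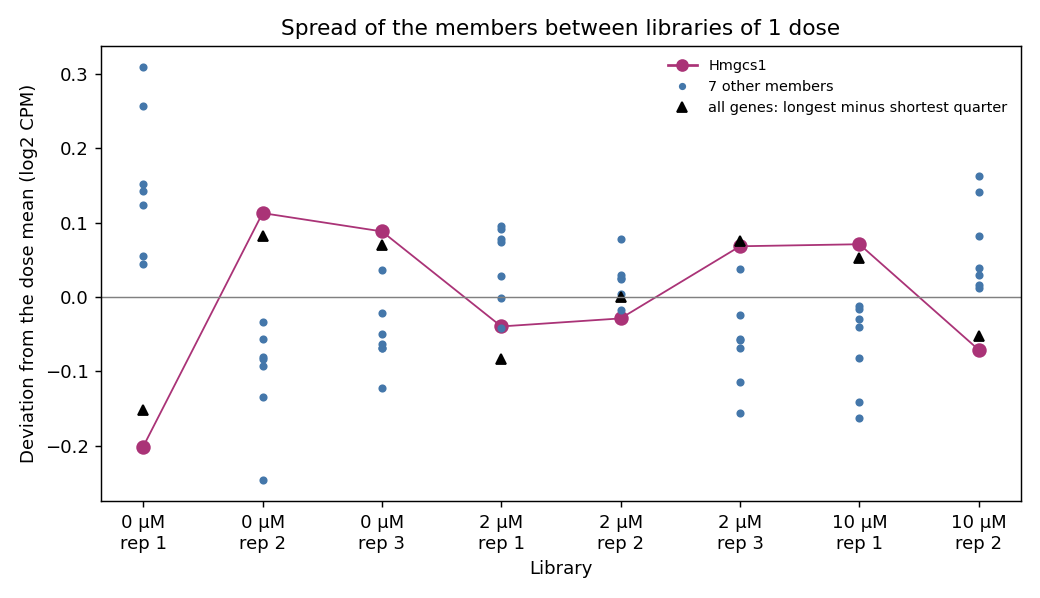
Points give the deviation of log2 CPM from the mean of the dose in each of the 8 libraries, for Hmgcs1 and the 7 other members. Triangles give, over all tested genes with a known length, the median of the longest 25% minus that of the shortest 25%. In the 0 µM replicate 1 and the 10 µM replicate 2, Hmgcs1 lies below 0 and the 7 other members above it.

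Of the other tested genes, 4 of the 5 most like the mean of the 8 standardised members over the 8 libraries were Apln (Pearson r = 0.993), Acly (0.992), Dusp6 (0.986) and Bmpr1a (0.986). Acly belongs to the supply list above, Apln encodes the peptide apelin, Dusp6 a phosphatase of ERK and Bmpr1a a BMP receptor. Their log2 changes at 10 against 0 µM were -0.93 for Apln (adjusted p = 0.000542), -0.63 for Dusp6 (adjusted p = 0.000601) and -0.21 for Bmpr1a (adjusted p = 0.0826). By rank the likeness of Dusp6 was lower (Spearman rho = 0.738), and that of the other 3 was 0.905 to 0.976.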

How the data were processed

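Total RNA was depleted of nuclear ribosomal RNA and made into stranded libraries. Per the labels, the authors trimmed reads with Trim Galore and cutadapt, aligned them to mm10 with STAR 2.5.2a and deposited raw counts per gene from featureCounts, 1 file per library. Its version, annotation and strand setting are not given in the sources used here. Tests on the deposited counts used edgeR 4.0.16 (R 4.3.3) with TMM, filterByExpr, glmQLFit and glmQLFTest, all 8 libraries in 1 fit with dose as the only factor and Benjamini-Hochberg adjustment over 14296 genes. Standard errors are the fold change divided by the square root of F. Alternatives were other scalings and filters, DESeq2 1.42.0, no minimum fold, only the 2 groups compared, a replicate block and each library left out. Simulated counts with known changes served to test the code.

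Exon lengths, overlaps and positions came from GENCODE M21, and 13730 of the tested genes (96.0%) matched by symbol to a length. Upstream sequences came from RefSeq. The members and lists were chosen with earlier results of these data known. The genes named are the members, the genes of the lists, those overlapping a member and the 5 most like them, but some of these are not reported here and are left out of the lists' counts. Depth limits cover counting error only.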

Additional observations from a re-analysis of the deposited data

How the results depend on the processing

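Called genes numbered 71 at 2 against 0 µM, 442 at 10 against 0 µM and 788 at 10 against 2 µM. Other settings moved them to 109 (DESeq2) and 107 (no minimum fold) at 2 µM, to 914 (total counts alone, 846 higher and 68 lower, against 279 and 163) and 747 (no minimum fold) at 10 against 0 µM, and to 1539 (no minimum fold) at 10 against 2 µM. Total counts alone also moved the split of higher and lower calls from 17 and 54 to 26 and 40 at 2 µM and from 561 and 227 to 923 and 84 at 10 against 2 µM. Leaving out 1 library gave 6 (without the 2 µM replicate 2) to 144 genes (without the 0 µM replicate 1) at 2 µM, 235 (without the 10 µM replicate 2) to 633 genes at 10 against 0 µM and 444 (without the same library) to 884 genes at 10 against 2 µM.

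Members called at 2 µM stayed at 0 in all 17 alternatives. At 10 against 0 µM they numbered 0 with total counts alone, 5 with no minimum fold and 2 to 3 in all others. At 10 against 2 µM they numbered 1 with total counts alone, 4 with no filter on low counts, 4 with DESeq2, 6 with no minimum fold and 1 to 3 without 1 library, 1 being the count without the 2 µM replicate 2. Changes at 2 µM near 0 turned sign with total counts alone for Acat2 (0.027) and Fdps (0.063), and when 1 library was left out they ranged from -0.12 to 0.085 for Acat2, -0.056 to 0.065 for Fdps and -0.094 to 0.18 for Mvd. At 10 against 0 µM total counts alone turned Mmab (0.14), Acat1 (0.17) and Bmpr1a (0.012), and without 1 library Acat1 ranged from -0.13 to 0.0081.

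Libraries with the same number did not deviate together throughout: r was 0.199, 0.0845 and 0.161 between 0 and 2 µM and negative between these and 10 µM. The numbers were therefore not read as pairs. Between 0 and 2 µM each library correlated best with its own number, a hint from the data and not the design. With a replicate block 54, 322 and 735 genes were called at 2 against 0, 10 against 0 and 10 against 2 µM, and 2 members were called at 10 against 0 µM (Hmgcs1 and Idi1, Acat2 being lost) and 2 at 10 against 2 µM. The 10 µM dose rests on 2 libraries, so leaving 1 out takes the lone library to vary like the other doses. The causes were not tested.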
